A study of Mus musculus with 4 samples.

Results

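The genes described here are 9 core components of the Hedgehog pathway, Shh, Hhat, Ptch1, Smo, Sufu, Kif7, Gli1, Gli2 and Gli3, out of 21523 protein-coding genes placed on chromosomes 1 to 19 and X. They were chosen by their role in the pathway, with the peaks at these genes already known. Their peak counts and signals are therefore a description and carry no test. The data are CUT&RUN peak lists from the molar tooth germs of E13.5 embryos (staged in days after conception) of the wild-type mouse strain CD1, dissociated to single cells before the antibody was bound. In CUT&RUN an antibody brings micrococcal nuclease to the chromatin it recognises, and the DNA released there is sequenced. The first list is of pSmad1/5, Smads that BMP receptors phosphorylate, and the second of pSmad3, a Smad that receptors for TGF-β and activin phosphorylate. Each antibody has 2 libraries and 1 deposited list, described as common to both libraries. No treated, mutant or control group was used, no value per library was used and read depth is unknown, so nothing below has an error between embryos. Epithelium, mesenchyme and other cells of the germ cannot be told apart.

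Hedgehog ligands are lipid-modified proteins that bind Patched receptors. Bound Patched releases Smoothened, which acts in the primary cilium and changes the balance between activator and repressor forms of the Gli transcription factors. In the early tooth Shh is made by the dental epithelium, first in the placode and then in the enamel knot, and both the epithelium and the neighbouring mesenchyme respond to it.

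Peaks of both antibodies were found at 7 of the 9 genes. With the locus taken as the gene body and 10 kb on each side (RefSeq gene table of GRCm38.p6, the assembly of the authors' build mm10), 8 genes had a pSmad1/5 peak, while 27.3% of all protein-coding genes did. For pSmad3 the count was 7 genes, while 24.4% of all protein-coding genes had one. Both antibodies had a peak at 7 members and at 14.1% of all protein-coding genes, and 1 member, Gli3, had neither, like 62.4% of all protein-coding genes. Shh had pSmad1/5 alone, and 0 members had pSmad3 alone. Alone refers to the deposited peaks, since signal under the threshold of the peak caller was not examined. Long loci meet more peaks, and the median locus was 85.1 kb for the members and 37.4 kb for all protein-coding genes. All protein-coding genes were therefore also divided by locus length into 20 bands of equal size. In the bands of the members, 25.2% to 46.4% of genes had a pSmad1/5 peak and 23.0% to 38.5% a pSmad3 peak. The share with both antibodies is not given for the bands, so the 14.1% does not allow for locus length. Whether the members differ from genes of their length was not tested.

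A peak below is 1 deposited line. Lines that share total signal, maximum signal and the region of the maximum are pieces of 1 call. The members' loci held 18 pSmad1/5 peaks from 14 calls and 17 pSmad3 peaks from 17 calls. Gli2 had the most, with 5 pSmad1/5 and 6 pSmad3 peaks, each from its own call. Smo followed with 5 pSmad1/5 peaks, pieces of 2 calls, and 1 pSmad3 peak. Ptch1 and Hhat each had 1 pSmad1/5 and 3 pSmad3 peaks, Sufu 2 pSmad1/5 peaks from 1 call and 2 pSmad3 peaks, Gli1 2 and 1, and Kif7 1 and 1.

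**Figure D1:**
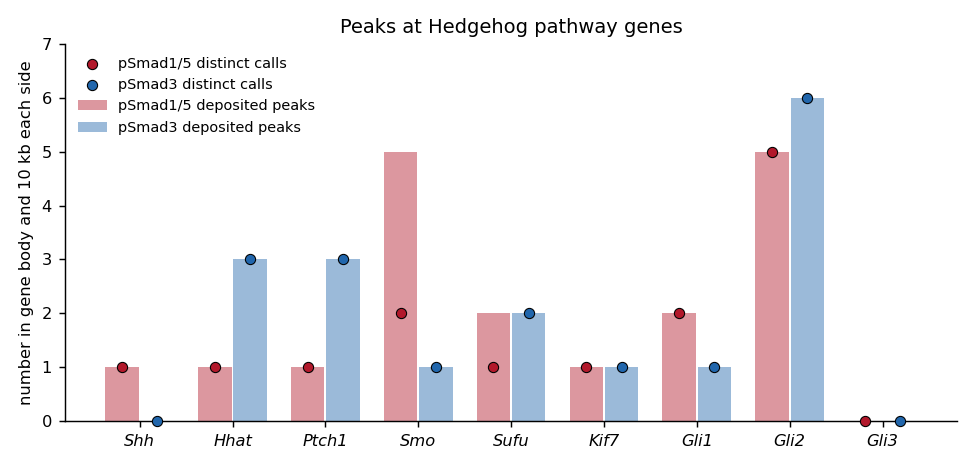
Number of deposited peaks (bars) and of distinct calls (points) of pSmad1/5 (red) and pSmad3 (blue) in the gene body and 10 kb on each side of each gene. Gli2 carries the most peaks of both lists, Gli3 has 0, and Smo is the gene at which peaks and calls differ most, with 5 pSmad1/5 peaks from 2 calls.

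Of the 7 members whose strand the RefSeq promoter table gives, Sufu alone had a call around its start. No deposited peak covered the 5′ end of any of them. Shh and Gli1 have no entry there, so their ends are not named as 5′ or 3′. A pSmad1/5 call at Gli1 reached across the upper end of that gene. The RefSeq promoter table gives the strand and a 300 bp promoter, from 250 bp before to 50 bp after the start, for 7 members: Ptch1, Smo, Gli2, Gli3, Sufu, Kif7 and Hhat. Of the 31 peaks at these genes, 2 lay within 1 kb of the 5′ end, and both were pieces of the same pSmad1/5 call at Sufu. By its midpoint, or by the end it faced, a peak was nearer the 3′ end in 22 cases and nearer the 5′ end in 9. Pieces of a call count separately here, as at Smo. The same counts over all genes were not made, so neither is read as a trait of the members. The promoters of Sufu and Kif7 are printed as examples, Sufu with a call around its 5′ end and Kif7 with a peak over its 3′ end. Smo had a pSmad1/5 peak 89 bp past its 3′ end, and its promoter is not printed. None of the 7 promoters had a deposited peak over it. The Sufu promoter is chr19:46396646-46396945 on the plus strand and that of Kif7 chr7:79715658-79715957 on the minus strand (RefSeq, GRCm38.p6). Capitals mark every match to CAGAC (or GTCTG), the core of the Smad-binding element, and to the GC-rich motifs GGCGCC (its own reverse complement) and GGAGCC (or GGCTCC).
Sufu: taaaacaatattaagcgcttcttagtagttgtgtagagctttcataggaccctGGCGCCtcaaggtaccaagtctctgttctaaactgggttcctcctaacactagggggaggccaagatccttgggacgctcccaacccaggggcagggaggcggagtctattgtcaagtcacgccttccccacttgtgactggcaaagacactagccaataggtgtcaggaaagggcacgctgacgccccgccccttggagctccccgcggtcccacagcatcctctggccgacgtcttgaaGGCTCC
Kif7: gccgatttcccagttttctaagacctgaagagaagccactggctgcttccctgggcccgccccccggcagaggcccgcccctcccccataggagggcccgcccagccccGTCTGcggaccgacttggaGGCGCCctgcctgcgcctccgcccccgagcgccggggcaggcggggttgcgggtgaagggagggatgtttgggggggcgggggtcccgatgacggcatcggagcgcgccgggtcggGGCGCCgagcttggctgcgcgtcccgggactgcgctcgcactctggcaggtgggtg

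The promoter of Sufu had 1 GGCGCC, 1 GGCTCC and 0 matches to CAGAC on either strand. The Kif7 promoter had 2 GGCGCC, 1 GTCTG and 0 matches to GGAGCC on either strand. These letters are common in promoters: of 32619 promoters on chromosomes 1 to 19 and X, 49.5% held CAGAC, 12% GGCGCC and 31.1% GGAGCC on either strand. Over the 7 members, 6 promoters held CAGAC (all but Sufu), 3 held GGCGCC (Ptch1, Sufu and Kif7) and 6 held GGAGCC (all but Kif7). The palindrome GTCTAGAC and the Gli motif TGGGTGGTC (or GACCACCCA) matched 0 of the 7 promoters, and 0.215% and 0.254% of all promoters. No searched motif contains another. A match is a description of the letters and not a site. Sequence under the peaks themselves was not analysed here.

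Shh, the Hedgehog ligand of the tooth, had 1 pSmad1/5 peak and 0 pSmad3 peaks in its locus. The gene lies on chromosome 5 (28456840 to 28467101), and the peak lay inside it, from 28460112 to 28461828. Its total signal of 35718 stood at percentile 0.363 of the pSmad1/5 peaks, whose median was 55037. Its maximum of 14 was also under the list median of 16 and lay inside Shh but outside the peak, 1940 bp away. The nearest pSmad3 peak, from 28438345 to 28443910, was 12930 bp from the gene, just beyond the edge of the locus.

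Long-range enhancers drive Shh in the oral epithelium and in the limb, and the limb enhancer sits within Lmbr1, the far neighbour of Shh. The 911 kb from the upper end of Shh through Lmbr1 (chromosome 5, 28467102 to 29378421) were therefore examined, a stretch chosen after the Shh values were seen. They held 3 pSmad1/5 and 3 pSmad3 peaks, each from its own call. How many peaks a stretch of this length holds elsewhere was not counted. The pSmad1/5 peaks lay 219, 334 and 473 kb above Shh with maxima of 17 each, and their total signals stood at percentiles 52.9, 5.13 and 67.3 of the list. All 3 lay outside protein-coding genes, between Shh and Rnf32. The pSmad3 peaks lay 164, 393 and 898 kb above Shh, at percentiles 84.6, 22.8 and 42. The farthest of them, from 29364665 to 29368183, lay inside Lmbr1, where pSmad1/5 had 0 peaks. Its maximum of 10 was under the list median of 13. The enhancers themselves were not placed, so no peak here is assigned to one. Peaks of the antibodies did not overlap in this stretch, and which gene any of them acts on was not measured.

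Hhat, the acyltransferase that attaches palmitate to Hedgehog ligands, had its peaks deep inside a long gene (chromosome 1, 192512825 to 192771219, minus strand). Its pSmad1/5 peak ran from 192629506 to 192632870 at percentile 58.9 with a maximum of 21. The third pSmad3 peak, from 192633408 to 192639376 at percentile 82.4 with a maximum of 13, began 538 bp above it. These peaks did not overlap, but the maximum of the pSmad1/5 call, at 192634582 to 192634596, lay inside the pSmad3 peak. The other 2 pSmad3 peaks, from 192581297 to 192585105 and from 192585794 to 192591560, had maxima of 10 each, under the list median of 13. The pSmad1/5 peak was 138349 bp and the nearest pSmad3 peak 131843 bp from the 5′ end of the gene.

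Ptch1, the receptor that restrains Smo and is itself a standard Hedgehog target, had peaks of both antibodies near its 3′ end. The gene spans 63508328 to 63573460 on the minus strand of chromosome 13. The pSmad1/5 peak ran from 63519140 to 63521873 with a total signal of 39168, at percentile 14.6, and a maximum of 12, under the list median. A pSmad3 peak from 63516209 to 63521223 overlapped it by 2084 bp and stood at percentile 47.4 with a maximum of 16, above its list median of 13. The maximum of each of these calls lay inside the peak of the other antibody. Of the other pSmad3 peaks, 1 lay inside the gene (63513467 to 63514621, percentile 19.3) and 1 outside it by 8743 bp (63498417 to 63499585, percentile 61.3, with its maximum 3012 bp away from it and also outside the gene). The last one is the peak of a member closest inside the 10 kb edge of the locus, and it lies 1125 bp from Fancc, a DNA repair gene. The peak nearest to the promoter given for Ptch1 was 43813 bp away.

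Smo, the membrane protein that carries the signal to the Gli factors, had by far the highest signals among the members. On chromosome 6 (29735497 to 29761366, plus strand), a pSmad1/5 peak from 29746830 to 29749293 had a maximum of 1009, which is 63.1 times the list median. The pSmad3 peak from 29747577 to 29749193 lay wholly inside it, with a maximum of 763, or 58.7 times its list median. Both maxima were 1 bp wide and lay 12 bp apart, at 29748425 for pSmad1/5 and 29748437 for pSmad3, inside the gene. Few calls were higher: 33 pSmad1/5 calls (0.394%) and 32 pSmad3 calls (0.417%) in the whole lists. No other member had a maximum over 2 times its list median, a bound that 8.98% of pSmad1/5 peaks and 5.97% of pSmad3 peaks exceeded in the whole lists. High-copy sequence was not masked, and its part in the Smo signal was not tested. The pSmad3 peak is the only one at Smo, so without peaks over 2 times the median Smo has pSmad1/5 alone.

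The second pSmad1/5 call at Smo was ordinary in height. It came in 3 pieces, from 29757198 to 29759547 inside the gene, from 29761455 to 29763187, which began 89 bp past the 3′ end, and from 29764947 to 29764992. Its total signal of 47531 stood at percentile 37.5 and its maximum of 15 was under the list median. The last piece was 46 bp wide and a second piece of the higher call was 23 bp wide, while the median pSmad1/5 peak was 2385 bp and 1.19% of pSmad1/5 peaks were under 100 bp. The 5 pSmad1/5 peaks at Smo are thus 2 calls and 3 pieces wider than 100 bp. In the length band of Smo, 0.743% of protein-coding genes had 5 or more pSmad1/5 peaks, counted as pieces.

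Sufu, the main restraint on the Gli proteins, had a pSmad1/5 call around its start and pSmad3 peaks far inside the gene. The gene runs from 46396896 to 46488804 on the plus strand of chromosome 19. The pSmad1/5 call was deposited in 2 pieces, from 46393563 to 46395977 and from 46397309 to 46400677, with 1331 bp between them. The printed promoter lies in that gap. The maximum of 16, equal to the list median, lay in the gap too, at 46396982 to 46397025, which begins 86 bp after the start of Sufu and 37 bp past the printed window. The call stood at percentile 50.6, so neither measure set it apart in the list. The piece outside Sufu reached into Actr1a, a dynactin subunit gene whose end lies 1154 bp from the start of Sufu, so the call cannot be assigned to either gene. The pSmad3 peaks ran from 46424840 to 46425066 (227 bp, percentile 68.0, maximum 12) and from 46483585 to 46485528 (percentile 71.5, maximum 15), the first of them 27944 bp from the start.

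Kif7, the ciliary kinesin that organises Gli processing, had overlapping peaks of both antibodies at its 3′ end. It lies on the minus strand of chromosome 7 (79698098 to 79715772). The pSmad1/5 peak, from 79693750 to 79697479, lay wholly within the pSmad3 peak, from 79693199 to 79699985. The pSmad1/5 peak was at percentile 30.2 with a maximum of 14, and the pSmad3 peak at percentile 76.7 with a maximum of 14, under and over their own list medians of 16 and 13. Both peaks also lay over Ticrr, a DNA replication gene that ends at 79698148 inside the annotated end of Kif7, and the pSmad1/5 peak stopped 619 bp short of Kif7. The 5′ end of Kif7, whose promoter is printed above, was 18293 bp from the pSmad1/5 peak and 15787 bp from the pSmad3 peak.

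**Figure D2:**
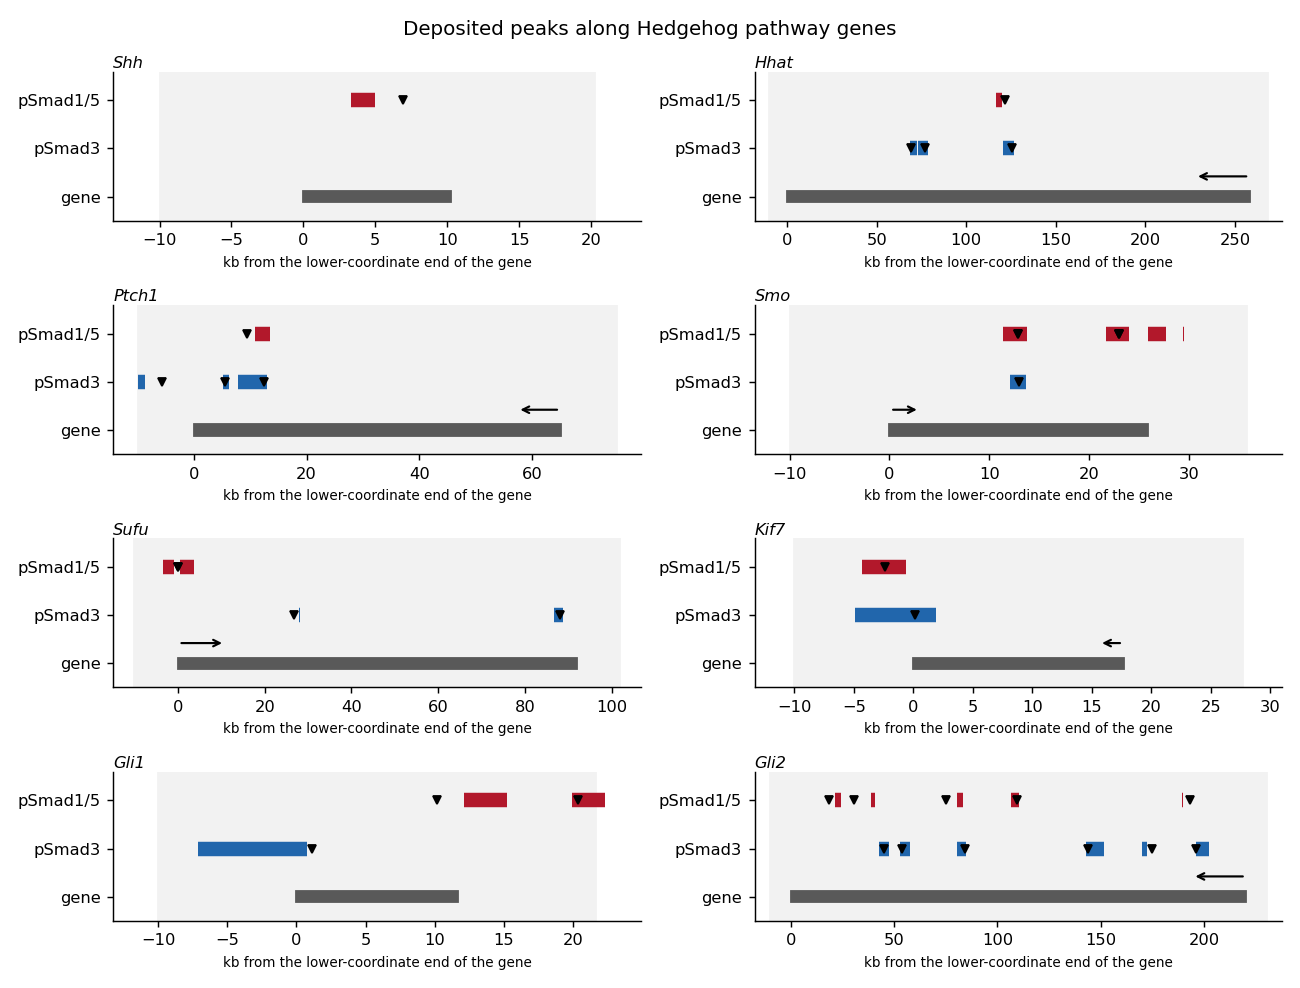
Deposited peaks of pSmad1/5 (red, upper row) and pSmad3 (blue, lower row) at the 8 members with a peak, in kb from the lower-coordinate end of each gene. Triangles mark the middle of the region of each call's maximum, grey shading the gene with 10 kb on each side, and arrows the direction of transcription where the promoter table gives it. Maxima often lie beside their peak, and the peaks of the antibodies coincide at Smo, Kif7, part of Ptch1 and 1 place in Gli2.

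Gli1, an activator whose own transcription reports Hedgehog activity, had peaks on both sides, and 2 of the 3 lay over a neighbouring gene. The gene spans 127329882 to 127341579 on chromosome 10. The pSmad3 peak, from 127322793 to 127330664, had a total signal of 62052 at percentile 89.5 and a maximum of 15. It covered the lower end of Gli1 but mostly the gene Arhgap9 (127321913 to 127329947), while its maximum, at 127331035 to 127331037, lay inside Gli1. A pSmad1/5 peak at the other end, from 127341986 to 127345080, began 407 bp outside the gene, at percentile 35.2. Its maximum of 18 lay inside Gli1 at 127340026 to 127340044, so this call reached across the upper end of the gene. Whether that is the 5′ or the 3′ end was not read, as the promoter table has no entry for Gli1. The second pSmad1/5 peak, from 127349784 to 127352179, began 8205 bp outside Gli1. It was at percentile 64.2 with a maximum of 19, and it lay over Inhbe, which encodes an inhibin and activin beta chain of the TGF-β superfamily. A further piece of that call lay 11357 bp from Gli1, just outside the locus. At Gli1 the nearest peaks of the antibodies were 11322 bp apart, so both antibodies had peaks in the locus but not at a shared place.

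Gli2, the main activator of the Hedgehog response, carried 11 of the members' 35 peaks, all inside the gene. It spans 118834061 to 119054405 on the minus strand of chromosome 1. The pSmad1/5 peaks lay 30.5 to 196 kb and the pSmad3 peaks 18.0 to 173 kb from its 5′ end, so the first stretch of the gene had neither. The strongest pSmad1/5 peak by total signal, from 118914397 to 118917267, had 117081 (percentile 82.9) and a maximum of 22. It is also the only place in Gli2 where deposited peaks of the antibodies overlapped, by 2584 bp, with a pSmad3 peak from 118914684 to 118918966 that was low in its list (percentile 18.9, maximum 14). The maxima of these overlapping calls were apart, at 118909352 to 118909373 for pSmad1/5 and at 118918293 to 118918310 for pSmad3, and neither lay in a peak of the other antibody.

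The other Gli2 peaks were spread over the ranking. The pSmad1/5 peak from 118872708 to 118874633 was at percentile 78.2 with its maximum 6040 bp away, and those beginning at 118855420, 118940587 and 119023284 at 47.9, 33.8 and 11.1. Among the pSmad3 peaks, the widest, from 118976622 to 118985365, was at percentile 76.9, followed by those beginning at 119029925 (56.0), 119003723 (45.7), 118886815 (40.8) and 118876729 (10.8). Maxima ran from 14 to 22 for pSmad1/5 and from 11 to 15 for pSmad3, close to the list medians. Other long genes carry as many peaks: in the band of the longest loci (209 kb and more), which holds Gli2, Gli3 and Hhat, 7.34% of genes had at least 5 pSmad1/5 peaks and 2.79% at least 6 pSmad3 peaks. Counted as calls, 29 other protein-coding genes had at least as many of each antibody as Gli2. The same counts of 5 and 6 were found at 2 other genes, Hivep3 (chromosome 4, locus 424 kb) and Asic2 (chromosome 11, locus 1110 kb), over the 2 lists, and both have longer loci than Gli2. Per 100 kb of locus Gli2 had 2.08 pSmad1/5 and 2.5 pSmad3 calls. Both values were under those of Gli1 (6.31 and 3.15) and Kif7 (2.65 and 2.65). They were over those of Sufu (0.894 and 1.79) and Hhat (0.359 and 1.08).

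Gli3, the main repressor of the pathway, had 0 peaks of either antibody although its gene is the longest of the 9 (chromosome 13, 15463723 to 15730026, plus strand). In its length band 46.4% of genes had a pSmad1/5 peak and 38.5% a pSmad3 peak, and 45.7% had neither, as Gli3 did. Its surroundings were empty too. The nearest pSmad1/5 peak, from 15395945 to 15398760, was 65.0 kb below the gene, and the next one above it 4450 kb away. The nearest pSmad3 peaks were 606 kb below and 1920 kb above. The stretch without a pSmad1/5 peak was 4.78 Mb long, and 42 of 10583 stretches between neighbouring peaks of that list were at least as long. For pSmad3 the stretch was 2.79 Mb, and 161 of 7809 were at least as long, with median stretches of 47.8 and 65.2 kb. The pSmad1/5 stretch held 16 protein-coding genes and the pSmad3 stretch 2, Gli3 included. These stretches were measured after the values were seen. A long stretch holds more of the genome than a short one, so a count of stretches makes such a setting look rarer than it is. The share of genes that lie in stretches this long was not measured.

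Across the members the signals were those of ordinary peaks, Smo apart. The total signal of each call was ranked among all peaks of its own list, because the scaling of the lists is not known to be the same. A call in several pieces counts several times in that ranking, so the middle of a list is that of its peaks and not of its calls. This touches pSmad1/5 (10741 peaks from 8380 calls) more than pSmad3 (7905 from 7682). The median percentile was 42.7 over the 14 pSmad1/5 calls (range 0.363 to 96.4) and 56.0 over the 17 pSmad3 calls (10.8 to 98.6). Above the middle of their list were 6 of 14 pSmad1/5 and 9 of 17 pSmad3 calls. Without Smo the maxima ran from 12 to 22 for pSmad1/5 and from 10 to 16 for pSmad3, against quartiles of 15 to 19 and 12 to 15 over the whole lists. Total signal rises with the length of a call, so a high percentile is not a tall peak.

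**Figure D3:**
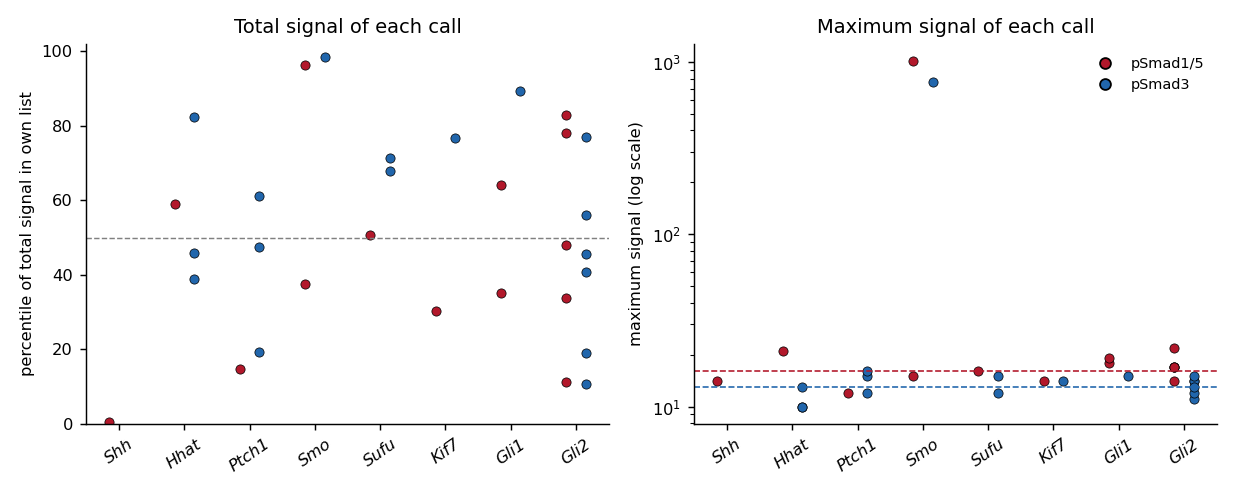
Percentile of total signal within its own list (left, dashed line at the middle of the list) and maximum signal on a log scale (right, dashed lines at the list medians of 16 and 13) for each distinct call at the 8 members with a peak. The calls spread over the whole range of percentiles, while all maxima except 1 of each antibody at Smo lie between 10 and 22.

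Of the 7 members with both antibodies, 4 had a place where their peaks overlapped, a share that is not given for all genes with both. Of the 18 pSmad1/5 peaks, 4 overlapped a pSmad3 peak by at least 1 bp (22.2%), against 21.9% of all pSmad1/5 peaks (chromosomes 1 to 19, X and Y). Of the 17 pSmad3 peaks, 4 overlapped a pSmad1/5 peak (23.5%), against 23.1% of all. The overlapping pairs were at Ptch1, Smo, Gli2 and Kif7, 1 pair each, so at Gli1, Sufu and Hhat no deposited peaks of the antibodies overlapped, although at Hhat the maximum of the pSmad1/5 call lay inside a pSmad3 peak. Of the peaks, 12 of 18 for pSmad1/5 and 14 of 17 for pSmad3 lay inside the gene. The others were 2 pSmad3 peaks over a gene end, at Gli1 and Kif7, and 6 pSmad1/5 peaks and 1 pSmad3 peak outside. The same shares over all loci were not computed.

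The deposited lines do not always hold the whole of a call, and this touches most pSmad1/5 values above. At the members, 5 of 18 pSmad1/5 and 12 of 17 pSmad3 peaks contained the region of their maximum (27.8% and 70.6%), close to the 27.1% and 70.0% of the whole lists. At 13 of 18 pSmad1/5 and 4 of 17 pSmad3 peaks the total signal was larger than the width of the peak multiplied by the maximum, more than a line of that width could hold if the total is summed over bases. This was so for 77.9% of all pSmad1/5 and 19.5% of all pSmad3 peaks. Signals are therefore those of a longer call or of a call in 1 library, which the sources used here do not tell apart, and the map of the peaks marks the place of each maximum. In every case the maximum lay within the same 10 kb locus, so the members with a peak remained the same 8 and 7 genes when the maximum was placed instead of the peak.

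Among other Hedgehog pathway genes pSmad3 peaks were the more numerous. Of 47 further genes in 5 role lists, 7 had a pSmad1/5 peak (14.9%) and 18 a pSmad3 peak (38.3%), against 27.3% and 24.4% of all protein-coding genes. Both antibodies had a peak at 6, pSmad1/5 alone at 1 (Ift172), pSmad3 alone at 12 and neither at 28. Their median locus was 58.2 kb, against 37.4 kb for all protein-coding genes. Unlike the members, they were not set beside genes of their own length, and long loci meet more peaks. The difference between the antibodies was not tested, and the lists were written with earlier results of these data known.

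Among the 5 role lists, pSmad3 shares were highest for ligands and their release (57.1%) and for known targets (50%). Of 7 genes for ligands and their release, pSmad1/5 had a peak at 2 and pSmad3 at 4. Scube1 and Scube3, secreted proteins of a family that helps release Hedgehog ligands, had 7 pSmad1/5 peaks from 5 calls with 3 pSmad3 peaks, and 3 pSmad1/5 peaks from 2 calls with 4 pSmad3 peaks. Disp1, the transporter that exports the ligand, and Scube2 had 1 pSmad3 peak each, while Ihh, Dhh and Disp2 had neither antibody. Of 5 receptors and co-receptors, pSmad1/5 had a peak at 0 and pSmad3 at 2. The co-receptors Boc and Cdon had 2 and 1 pSmad3 peaks alone. The antagonist Hhip and the co-receptor Gas1 had neither.

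Of 11 genes of the cilium, each antibody had a peak at 2 (18.2%), under but not far from the 27.3% and 24.4% of all protein-coding genes. Iqce, part of the ciliary Evc complex, had 3 pSmad1/5 peaks (2 calls) and 1 pSmad3 peak, Evc2 of the same complex pSmad3 alone, and Ift172, an intraflagellar transport protein, pSmad1/5 alone. Of 12 kinases and factors of Gli turnover, 1 had a pSmad1/5 peak and 4 a pSmad3 peak. Ulk3, a kinase that acts on Gli proteins, had 2 pSmad1/5 peaks (1 call) and 1 pSmad3 peak, while Btrc, Grk2 and Gsk3b had 1 pSmad3 peak alone. Of 12 known target genes, pSmad1/5 had a peak at 2 and pSmad3 at 6. The cell cycle gene Ccnd1 and the growth regulator Mycn had 1 peak of each antibody. The forkhead gene Foxf1 had 2 pSmad3 peaks from 1 call, and its neighbours Foxc2 and Foxl1 share a single pSmad3 peak on chromosome 8 (121120097 to 121124765), so the 6 target genes with pSmad3 rest on 5 separate places. None of the named genes of these 5 lists had a maximum over 20 for pSmad1/5 or over 19 for pSmad3.

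**Figure D4:**
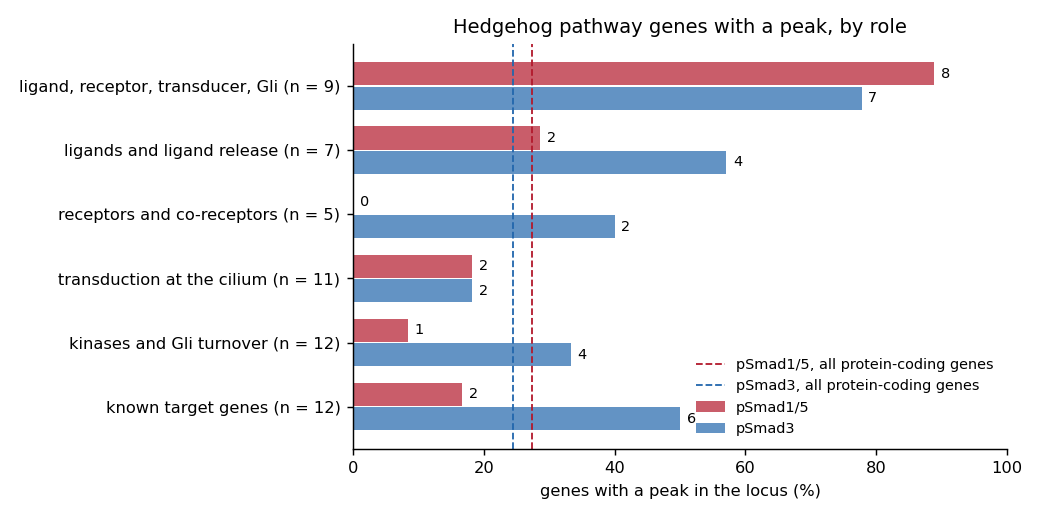
Percent of genes with a peak in the locus for the 9 members (top row) and for the 5 lists of other Hedgehog pathway genes, with the number of genes beside each bar. Dashed lines show the share of all protein-coding genes, 27.3% for pSmad1/5 (red) and 24.4% for pSmad3 (blue). Outside the members, pSmad3 shares are above that line in every list except transduction at the cilium, and pSmad1/5 shares are at or below 28.6%. The dashed lines do not allow for locus length.

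Markers of the tissue were looked up in the same way, although a peak list holds no expression and cannot show which cells were present. Of 10 dental mesenchyme markers, each antibody had a peak at 1 (10%), against 27.3% of all protein-coding genes for pSmad1/5 and 24.4% for pSmad3. Of 8 dental epithelium markers, among them Shh, pSmad1/5 had one at 3 (37.5%) and pSmad3 at 0. For 5 endothelial markers the counts were 3 for pSmad1/5 (60.0%) and 2 for pSmad3 (40.0%), and for 5 macrophage markers 1 (20%) and 3 (60.0%). The lists hold 5 to 10 genes each, so a single gene moves these shares widely, and nothing is read from them. What part cells other than tooth epithelium and mesenchyme had in the peaks at the Hedgehog genes was not tested.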

How the data were processed

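CUT&RUN was done on E13.5 molar tooth germs with 2 libraries per antibody, with digestion for 30 min and paired-end reads of 100 bp, per the labels. Per the submitters' processing notes, mm10 was the build and the tools were SEACR, Bowtie2, bedtools, deepTools and SAMtools, without versions. The sources used here give no SEACR threshold, no control library and no rule for joining the libraries, so each total and maximum may be that of a call in 1 library and not of the common peak. The authors deposited 1 list per antibody with 2 values per call, the maximum coverage signal and the total (the other deposited value, the signal summed over the call), in a scaling that is not stated, so signals were ranked within a list only. The lists held 10741 pSmad1/5 peaks from 8380 calls and 7905 pSmad3 peaks from 7682 calls.

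Starts in the lists were raised by 1 so that all coordinates are 1-based. A peak belonged to a gene if it shared at least 1 bp with the gene body or 10 kb on each side in the RefSeq table of GRCm38.p6. Genes placed below 3 Mb, which belong to unlocalised scaffolds, were not used. Exons and introns were not assigned. Promoters and strand came from the RefSeq promoter table for 7 of the 9 genes. Percentiles are mid-ranks of total signal over all peaks of a list. Counting and overlap were tested on simulated data. Python 3.11.15 was used.

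All members are named, with up to 4 other pathway genes with a peak per role list, by most calls. Those named without a peak, and Foxl1, were chosen after their values were seen. Up to 3 genes with the calls of Gli2 were to be named, and 2 exist. The members, lists and alternatives were chosen with earlier results of these data known. No test was run, as there is no value per library. A gene planned for the lists of other pathway genes is not reported here.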

Additional observations from a re-analysis of the deposited data

How the results depend on the processing

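With the gene body alone as the locus, 6 members had a pSmad1/5 peak and 5 had both antibodies, against 8 and 7 as reported. Other flanks, the peak midpoint or the maximum in place of any shared base, and leaving out peaks over 2 times the median maximum changed each count of members by at most 1. Using only peaks at or above the median total signal left 5 members with a pSmad1/5 peak, 8 pSmad1/5 peaks from 6 calls and 9 pSmad3 peaks from 9 calls. Counting only peaks within 1 kb of a gene end left 4 members with a pSmad1/5 peak, 2 with a pSmad3 peak and 2 with both, from 5 pSmad1/5 peaks in 4 calls and 2 pSmad3 peaks in 2 calls. Both settings use fewer peaks by construction. Shares of all protein-coding genes are given for the 10 kb locus alone, so member counts under other settings have no such share beside them. Under all alternatives, 46 values were within 1.5 times the reported one and 12 were not. The 8 peaks that overlap the other antibody were 8 also with an overlap of at least 50% of the shorter peak and as distinct calls. No paired analysis was possible because each antibody has 1 deposited list with no value per library, and for the same reason no library could be left out. Read depth is unknown, so how far a missing peak depends on depth was not measured.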
